A study of Mus musculus with 4 samples.

Results

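The SR proteins and the heterogeneous nuclear ribonucleoproteins (hnRNPs) are the 2 large families of RNA-binding proteins that choose splice sites, and their genes were described here in mouse T helper 17 (Th17) cells. Members were all protein-coding genes whose GENCODE mouse symbol starts with Srsf and a digit or with Hnrnp. The rule found 31 genes, 11 SR and 20 hnRNP, among 21764 protein-coding genes and 50600 genes in all, and used no expression value. Other proteins of both families carry other symbols, such as the polypyrimidine tract binding proteins, and are given as a list of their own below. The data were RNA-seq counts of 4 libraries of Th17 primary cells from C57BL/6NJ mice, obtained by differentiation of CD4 T cells and numbered as biological replicates 1 to 4. All 4 form a single group with no other cell type, treatment or genotype, the labels give 1 donor entry for all, and age and sex were not recorded. Total RNA-seq is the assay named in the labels, yet the library protocol they link is named for poly(A)-selected RNA. The table headers place the samples at 24 hours, which no label states.

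SR proteins hold 1 or more RNA recognition motifs and a tail rich in arginine-serine repeats. SR protein kinases phosphorylate that tail, the importin transportin-SR carries the protein into the nucleus, and the protein then binds exonic enhancers and helps U1 and U2 small nuclear ribonucleoproteins to define the exon. hnRNPs coat nascent transcripts through RNA recognition motifs or KH domains, and many carry arginine-glycine-glycine boxes that arginine methyltransferases modify. They often act against SR proteins by silencing exons, and several also act in mRNA export, stability and translation. Many genes of both families regulate their own mRNA through alternative exons that bring in a premature stop codon, so-called poison exons, whose transcripts are degraded by nonsense-mediated decay. In T cells the best known target is Ptprc (CD45), whose variable exons are silenced by hnRNP L and its activation-induced relative hnRNP LL.

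The repeats that define the SR family can be read directly from the coding sequence. Below are the 30-codon stretches of 6 SR genes that hold the most codons in arginine-serine or serine-arginine pairs, with those codons in capitals, from the GENCODE M21 coding sequences (mm10). They are shown because these genes span the family: the most abundant member here (Srsf2), the founding member (Srsf1), the pair of small shuttling proteins (Srsf7 and Srsf3), the longest repeat tail (Srsf4) and the member at the lowest level (Srsf12).
Srsf2: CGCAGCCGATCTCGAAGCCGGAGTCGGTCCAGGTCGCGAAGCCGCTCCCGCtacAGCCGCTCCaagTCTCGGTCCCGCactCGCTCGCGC
Srsf1: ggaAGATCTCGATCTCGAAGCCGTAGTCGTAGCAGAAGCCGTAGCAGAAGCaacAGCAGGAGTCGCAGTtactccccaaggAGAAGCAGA
Srsf7: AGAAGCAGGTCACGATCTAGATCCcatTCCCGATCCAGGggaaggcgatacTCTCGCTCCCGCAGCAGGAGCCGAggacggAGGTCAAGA
Srsf3: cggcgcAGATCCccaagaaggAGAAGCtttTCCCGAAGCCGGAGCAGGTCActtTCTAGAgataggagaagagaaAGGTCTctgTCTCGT
Srsf4: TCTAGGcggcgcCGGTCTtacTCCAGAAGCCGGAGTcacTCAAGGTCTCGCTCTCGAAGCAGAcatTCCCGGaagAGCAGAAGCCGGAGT
Srsf12: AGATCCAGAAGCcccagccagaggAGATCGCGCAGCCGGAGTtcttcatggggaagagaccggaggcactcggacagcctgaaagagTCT
In the Srsf2 stretch 27 of 30 codons were in such pairs, and in the Srsf12 stretch 11 of 30. Each gene was read from 1 coding sequence, the longest of those marked principal in GENCODE, or of all where none was. For Srsf10 it had 183 codons, and other isoforms were not measured. Over the whole coding sequence, the share of codons in arginine-serine pairs was 31.1% in Srsf7, 29.1% in Srsf4, 28.5% in Srsf2 and 27.7% in Srsf6. It was above 20% in 6 of the 11 SR genes and above 10% in 10 of them, and Srsf9, known for its short repeat tail, had 6.8%. None of the 20 hnRNP genes exceeded the 4.5% of Hnrnpdl, and Hnrnpm had the lowest share at 0.55%. Srsf5, whose mean level was within 1 TPM of that of Srsf9, had 22.3%.

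**Figure D1:**
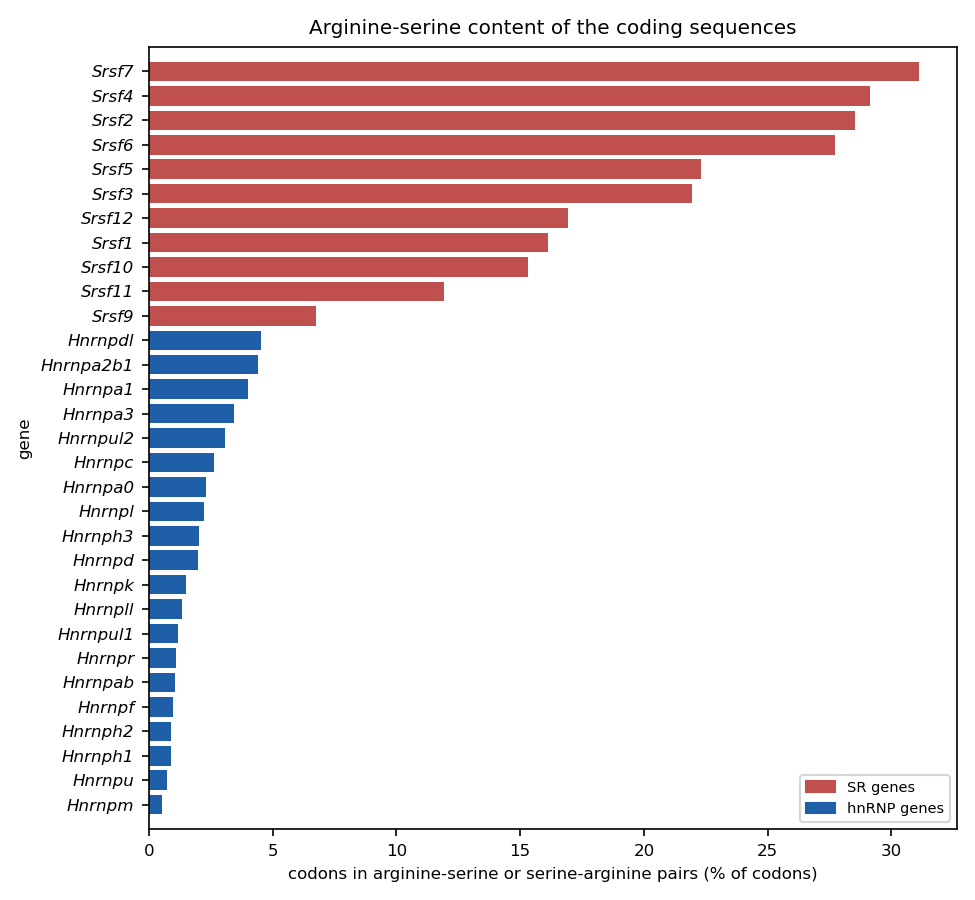
Percent of codons that lie in arginine-serine or serine-arginine pairs (x axis) in the coding sequence of each of the 31 genes (y axis), SR genes in red and hnRNP genes in blue. Every SR gene lies above every hnRNP gene, from 6.8% in Srsf9 to 31.1% in Srsf7, against at most 4.5% in the hnRNP genes.

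Most of the hnRNP genes hold another motif, the triplet of arginine and 2 glycines. The 30-codon stretches with the most such triplets are shown for the 3 most abundant hnRNP genes and for Hnrnpu, with the triplets in capitals.
Hnrnpa1: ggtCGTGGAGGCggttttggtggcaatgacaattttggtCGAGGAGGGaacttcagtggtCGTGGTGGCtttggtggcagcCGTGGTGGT
Hnrnpab: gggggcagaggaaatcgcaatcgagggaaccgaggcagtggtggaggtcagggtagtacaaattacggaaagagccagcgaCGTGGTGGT
Hnrnpa2b1: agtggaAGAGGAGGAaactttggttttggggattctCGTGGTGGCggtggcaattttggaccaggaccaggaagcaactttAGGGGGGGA
Hnrnpu: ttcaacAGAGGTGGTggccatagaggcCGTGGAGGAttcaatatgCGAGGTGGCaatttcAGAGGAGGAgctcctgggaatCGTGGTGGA
Hnrnpu and Hnrnpr had 8 triplets each in their coding sequence, Hnrnpa3, Hnrnpk and Hnrnpul1 had 5, and Hnrnpa1, Hnrnpa2b1 and Hnrnpa0 had 4. Hnrnpc, Hnrnpl, Hnrnpll, Hnrnpf, Hnrnph1 and Hnrnph2 had none. Of the SR genes, Srsf1 and Srsf9 had 2 triplets and Srsf5 and Srsf12 had 1, while the others had none. Hnrnpab, shown above, had 1 as well.

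Depth was 19332509 to 48558772 counted read pairs per library, of which the 31 genes took 1.77% to 1.85%. Levels are given in TPM, the count per kilobase of a gene's merged exons scaled to the same sum in each library. The libraries did not match in sex-linked genes. The Y-linked Ddx3y was at 77.8, 58.9, 0.240 and 0.0925 TPM in replicates 1 to 4. Xist, the RNA that silences an X chromosome, was at 0.916, 1.01, 154 and 152 TPM. By these genes replicates 1 and 2 held male and replicates 3 and 4 female cells, so the libraries do not all come from 1 mouse. All 11 protein-coding T cell and Th17 markers lay above 1 TPM, with Batf at 787 ± 33.4, Irf4 at 639 ± 34.2, Il17f at 492 ± 71.4 and Il23r at 14.4 ± 2.70 TPM (SD, n = 4). None of 5 B cell, 6 myeloid or 4 erythroid markers lay above 1 TPM, and their summed levels per library were 0.189 to 1.06, 0.0574 to 0.291 and 0 to 0.318 TPM. Of 4 CD8 T and NK markers, only Gzmb, a granzyme also made by activated CD4 T cells, lay above 1 TPM, at 2.57 ± 0.343 TPM, while Klrb1c and Ncr1 were at 0. Where 4 values of a gene follow, they are of replicates 1 to 4 in that order.

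The families were expressed at high levels nearly throughout. Of the 31 genes, 30 lay above 1 TPM by edgeR's quasi-likelihood test with Benjamini-Hochberg adjustment at 0.05, where 45.9% of all protein-coding genes did. None lay below 1 TPM, where 51.5% of all protein-coding genes did, and Srsf12 lay on neither side. DESeq2's Wald test gave 30 and 0 as well, with the largest adjusted p of the 30 genes at 3.27e-137 for Hnrnpr. Both tests borrow their dispersion partly from the rest of the genome. Their p-values measure only the spread between these libraries, part of which may be technical. The median level was 344 TPM over the 31 genes, against 32.5 TPM over the 9986 protein-coding genes above 1 TPM. Among all protein-coding genes ranked by mean TPM, 2 members were in the first 100, 17 in the first 500 and 22 in the first 1000. In a bulk sample, a low level in all cells and a higher level in a few of them cannot be told apart.

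**Figure D2:**
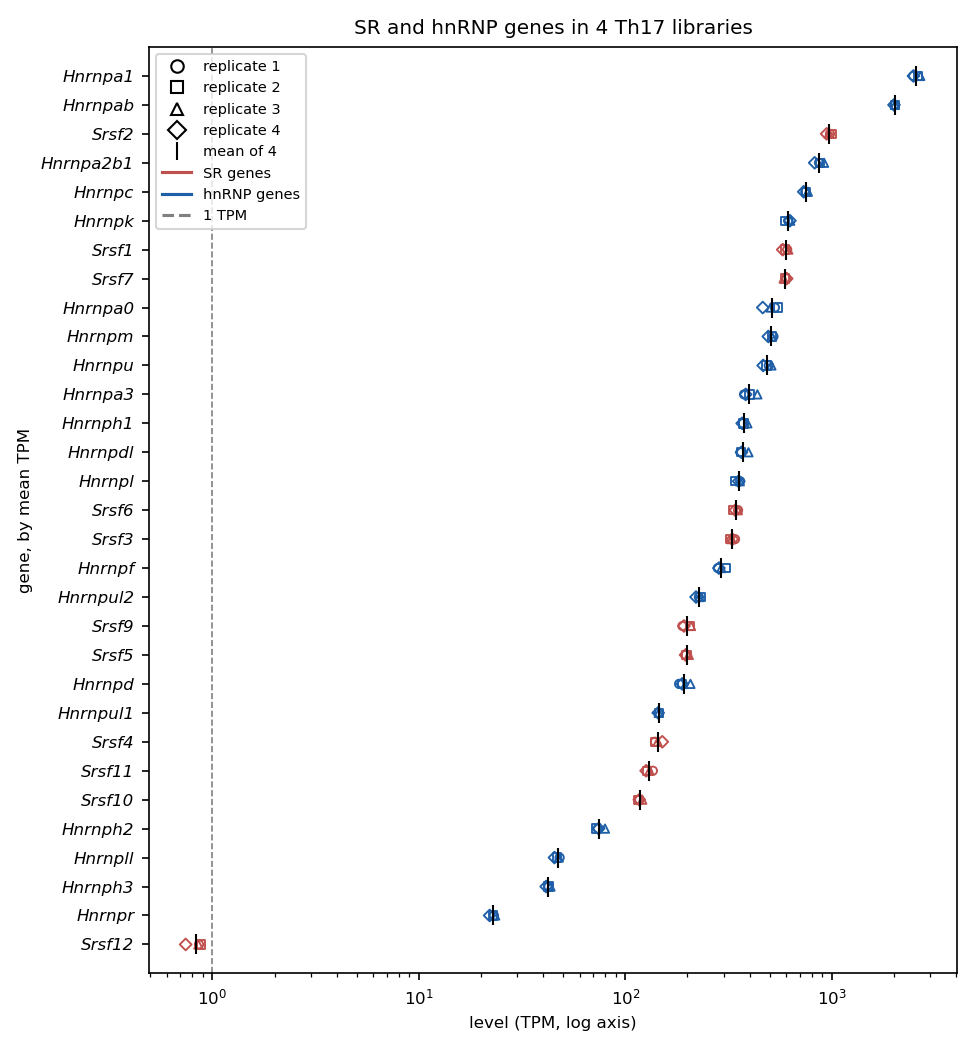
Level in TPM on a log axis (x) of the 31 genes (y, ordered by mean) in each of the 4 libraries, with the mean as a vertical tick, SR genes in red, hnRNP genes in blue and 1 TPM as a dashed line. The libraries nearly coincide for each gene, and 30 genes lie between 22.8 and 2568 TPM, with Srsf12 alone at 0.834 TPM.

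Summed over their members, the hnRNP genes gave 10757, 10943, 11189 and 10582 TPM and the SR genes 3660, 3629, 3649 and 3580 TPM. The ratio of the hnRNP sum to the SR sum was 2.99 ± 0.058 (SD, n = 4) and ran from 2.94 to 3.07, with 20 genes in the one and 11 in the other. It is the ratio under the symbol rule. Outside it are 14 hnRNPs with other symbols, which summed to 4263 to 4343 TPM per library. The 19 SR-related genes, at 2168 to 2248 TPM, are outside it too. The median gene of each family differed less, at 373 TPM for hnRNP and 199 TPM for SR genes. Few genes carried most of each sum. The 3 highest members made up 50.2% of the hnRNP sum and 59.7% of the SR sum.

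Among the classical SR genes, Srsf2, which marks nuclear speckles and activates weak exons, stood highest at 979.9, 1003, 966 and 944 TPM, a mean of 973 ± 24.8 TPM (SD, n = 4). It lies at mm10 chr11:116849901-116853094 on the minus strand (ENSMUSG00000034120.18) and ranked 115th of all protein-coding genes. Srsf1, the founding SR protein, followed at 608, 592, 615 and 578 TPM, and Srsf7, which carries a zinc knuckle and adapts mRNA for export, at 604, 594, 584 and 605 TPM. The range of Srsf7 lay within that of Srsf1, and each of the 2 was the higher in 2 of 4 libraries. This holds for merged exons: with the longest protein-coding transcript Srsf1 was at 461 and Srsf7 at 409 TPM, and with the median transcript length at 526 and 371 TPM. Srsf6 came next at 352, 332, 351 and 341 TPM, ahead of Srsf3, the smallest SR protein and an export adaptor like Srsf7, at 339.8, 320.2, 326 and 329.8 TPM. Srsf6 was the higher of these in all 4 libraries, by 0.064 ± 0.028 as the log2 ratio of TPM (SD, n = 4), but not with the longest protein-coding transcript as the length, where Srsf6 was at 339 and Srsf3 at 464 TPM. Srsf9 and Srsf5 formed a pair at 199 ± 9.54 and 198 ± 3.52 TPM that exchanged order between libraries. This closeness holds for merged exons: with the longest transcript Srsf9 was at 204 and Srsf5 at 364 TPM, and with the median transcript length at 155 and 239 TPM. Srsf4, with the longest repeat tail of the classical members, was the lowest of them at 143 ± 5.57 TPM.

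The 3 divergent SR genes spanned a far wider range. Srsf11, which promotes small neuronal exons, was at 136, 128, 131 and 126 TPM, and Srsf10, a repressor of splicing when dephosphorylated, at 117, 115, 121 and 117 TPM. Srsf12, the closest relative of Srsf10 in the family, had 0.861, 0.878, 0.855 and 0.742 TPM, from 33, 16, 28 and 34 counts. Its coordinates are mm10 chr4:33208991-33233340 on the plus strand (ENSMUSG00000054679.8), and at 0.834 ± 0.062 TPM (SD, n = 4) it ranked 10348th of all protein-coding genes. All 4 libraries thus lay just under 1 TPM, with an edgeR adjusted p of 0.24 against that line. The next lowest of the 31 genes, Hnrnpr, was 4.78 ± 0.083 higher as a log2 ratio of TPM, the widest gap between neighbours in the order.

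The hnRNP A/B genes held the largest sum of any subgroup, 4350 ± 175 TPM. Hnrnpa1, an exon silencer and shuttling protein at mm10 chr15:103240432-103244955 on the plus strand (ENSMUSG00000046434.15), reached 2481, 2624, 2682 and 2486 TPM and ranked 24th of all protein-coding genes. With 28.2% of the 50-base words in its transcripts also found in other genes, led by the copy Gm10052, its level is uncertain, because reads that map to several places were not counted. Hnrnpa2b1, which also sorts RNAs for transport, gave 867, 875, 918 and 826 TPM. Hnrnpa0, an intronless gene whose protein binds AU-rich elements, gave 530.2, 547, 505 and 463 TPM. Hnrnpa3 gave 376, 399, 436 and 383 TPM and shares 26.9% of its words with other genes, so its level is uncertain too. Replicate 3 was the highest in Hnrnpa1, Hnrnpa2b1 and Hnrnpa3, and replicate 2 in Hnrnpa0.

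In the AB/D subgroup, Hnrnpab (mm10 chr11:51600100-51606847, minus strand, ENSMUSG00000020358.17), a single-stranded DNA and RNA binding protein, was 38th of all protein-coding genes at 2015, 2027, 2021 and 2001 TPM. These values differed by 1.01-fold between the lowest and the highest library. Hnrnpdl gave 361, 363, 395 and 365 TPM, with replicate 3 apart from the others. Hnrnpd, also called AUF1, which binds AU-rich elements and hastens decay of cytokine mRNAs, gave 182, 188, 207 and 189 TPM. It stood below Hnrnpdl in all 4 libraries.

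The remaining hnRNP genes lay between 748 and 22.8 TPM. Hnrnpc, which binds uridine tracts and keeps cryptic exons out, was at 748 ± 14.4 TPM, Hnrnpk, which binds cytosine-rich RNA through KH domains, at 616 ± 16.3 TPM and Hnrnpm at 509.9 ± 12.3 TPM (SD, n = 4). Hnrnpu, a nuclear scaffold protein, was at 488 ± 19.1 TPM, ahead of its relatives Hnrnpul2 at 227 ± 4.83 TPM and Hnrnpul1 at 145 ± 0.510 TPM. The G-tract binding genes Hnrnph1 and Hnrnpf were at 375 ± 9.96 and 290 ± 11.2 TPM, and 43.2% of Hnrnpf words are found in other genes, so its level is uncertain. Hnrnph2, an X-linked gene, had 73.5, 71.9, 79.7 and 74.3 TPM, so its 2 highest values were in replicates 3 and 4, in which Xist was at 154 and 152 TPM. The part of the sex-linked difference in them was not tested. Hnrnph3 was at 42.4 ± 0.840 TPM, and Hnrnpr, a relative of Syncrip, at 23.1, 22.8, 23.4 and 22.01 TPM.

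Hnrnpl and Hnrnpll, the regulators of CD45 exons, were both present but at different levels. Hnrnpl was at 359.8, 342, 359 and 354 TPM, and Hnrnpll at 48.0, 46.7, 47.6 and 45.4 TPM. Within a library the first exceeded the second by 2.89 ± 0.038 on the log2(TPM + 1) scale (SD, n = 4). Their target Ptprc was at 283, 282, 291 and 273 TPM. Counts per gene do not say which CD45 exons were included.

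Neighbours in the order of levels were compared within each library. Of 30 neighbouring pairs, 24 kept their order in all 4 libraries and 6 did not, namely Srsf1 and Srsf7, Hnrnpa0 and Hnrnpm, Hnrnph1 and Hnrnpdl, Srsf9 and Srsf5, Srsf5 and Hnrnpd, and Hnrnpul1 and Srsf4. In 7 pairs, these 6 and Hnrnpk with Srsf1, the mean difference was smaller than its SD over libraries. The order is that of merged exons: of the 24, 14 kept their order of mean TPM with the longest protein-coding transcript and 16 with the median transcript length.

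Close relatives were then set against each other in 18 pairs, as differences of log2(TPM + 1) within a library. In each of the 18 pairs, all 4 libraries gave the same sign. That yields the smallest p that the exact two-sided sign-flip permutation test over 4 libraries allows, 0.13 for each pair and 0.13 after Benjamini-Hochberg adjustment over the 18, so none passes 0.05. The widest was that of Srsf10 over Srsf12, at 6.01 ± 0.058 (SD, n = 4). Since Srsf12 lies under 1 TPM, the pseudocount bears on this value, which was 6.98 with log2(TPM + 0.1), and the ratio of mean TPM was 141. Hnrnpab exceeded Hnrnpd by 3.39 ± 0.077, with 71.8% of aligned coding bases identical. Hnrnph1 exceeded Hnrnph3 by 3.12 ± 0.019 and Hnrnph2 by 2.31 ± 0.036, although Hnrnph1 and Hnrnph2 were the most alike in sequence of the 18 pairs, with 85.9% of coding bases identical. Hnrnpa1 exceeded Hnrnpa0 by 2.33 ± 0.10, and Srsf1 exceeded Srsf9 by 1.59 ± 0.068. Smaller differences were those of Srsf2 over Srsf1, 0.70 ± 0.046, and of Hnrnpf against Hnrnph1, -0.37 ± 0.058. Hnrnpf shares 43.2% of its 50-base words with other genes, against 1.77% in Hnrnph1 and 15.9% in Hnrnph2. Hnrnpa1 shares 28.2%, against 0% in Hnrnpa0. Reads that map to several places were not counted, so the differences of Hnrnpf and Hnrnpa1 are uncertain beyond their SDs. Hnrnpr stood 2.36 ± 0.044 below Syncrip, which was at 121 ± 5.85 TPM.

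**Figure D3:**
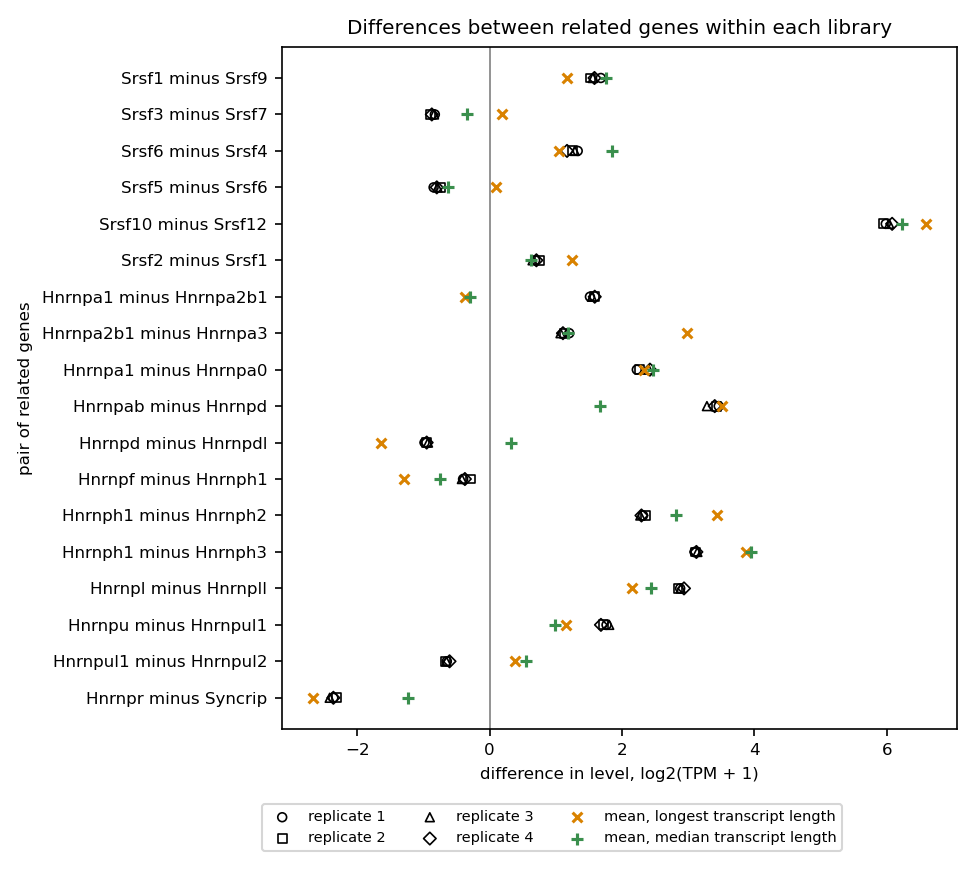
Difference in level, as log2(TPM + 1) of the first gene minus that of the second (x axis), for 18 pairs of related genes (y axis), with 1 open symbol per library and the means under the longest and the median transcript length as a cross and a plus. The 4 libraries lie on the same side of 0 in each pair, while the cross lies on the other side in 4 pairs and the plus in 3.

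TPM divides by the length of all annotated exons merged, which takes in exons outside the protein-coding transcripts, such as those of retained-intron and decay transcripts. The merged exons were more than 2 times the longest protein-coding transcript in 7 of the 31 genes. Hnrnpa2b1 led at 3.81 times and Hnrnpll followed at 3.75 times. Hnrnph1, at 2.41 times, has no retained-intron or decay transcript in GENCODE M21. Merged exons are of GENCODE M13 and transcripts of M21, so ratios mix 2 releases, and that of Srsf7 was 0.948. With the longest protein-coding transcript as the length, Hnrnpa2b1 became the highest of the 31 genes at 2400.4 ± 104 TPM, ahead of Hnrnpa1 at 1857 ± 73.3 TPM, and their difference turned to -0.37. Srsf3 against Srsf7 turned from below to above, at 0.18 in place of -0.86, Srsf5 against Srsf6 to 0.10 in place of -0.79, and Hnrnpul1 against Hnrnpul2 to 0.38 in place of -0.64. Hnrnpll moved to 127 ± 3.17 TPM, and its difference from Hnrnpl narrowed to 2.15. Srsf12 moved to 0.646 ± 0.048 TPM and was then called below 1 TPM. These levels are relative, so a gene whose length stayed the same also moved, such as Hnrnpa0 to 370 ± 26.4 TPM. With this length the ratio to the merged exon level ran from 0.69 to 2.75, and 7 genes moved by more than 1.5 times. With the median transcript length 13 did, and Hnrnpr moved to 3.96 times its level. Hnrnpk was then the highest of the 31 genes at 1654 ± 44.2 TPM, ahead of Hnrnpa2b1 at 1585 ± 67.2 and Hnrnpa1 at 1287 ± 51.7 TPM, so each of the 3 lengths gave another highest gene. Hnrnpab then exceeded Hnrnpd by 1.67, Hnrnpr against Syncrip came to -1.23, and Hnrnpd stood above Hnrnpdl by 0.33. Which length the cells used was not measured in counts per gene.

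**Figure D4:**
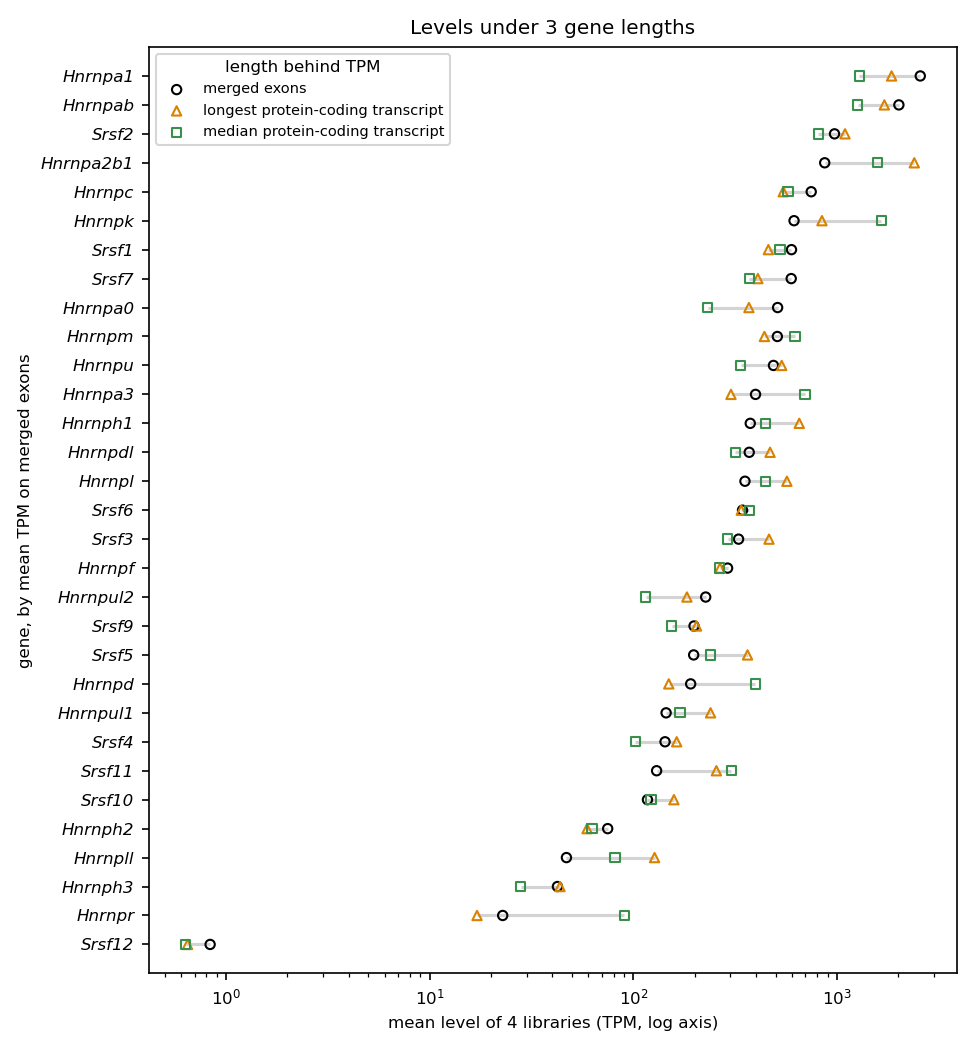
Mean level of 4 libraries in TPM on a log axis (x) of the 31 genes (y, in the order of the merged exon levels), with merged exons as circles, the longest protein-coding transcript as triangles and the median protein-coding transcript as squares. Hnrnpa2b1 lies highest with the triangles, at 2400.4 TPM, and Hnrnpr moves most with the squares, to 90.4 TPM, while Srsf12 stays lowest with all 3 lengths.

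Levels were close between libraries. None of the 31 genes varied beyond the dispersion trend (0.501% of the 11171 protein-coding genes tested did) in a negative binomial deviance test with edgeR's dispersion trend and Benjamini-Hochberg adjustment, and none did with DESeq2's dispersion trend. At an unadjusted p under 0.05 there were 3, Hnrnpa3, Hnrnpa0 and Hnrnpd, against 5.28% of all genes tested, and their unadjusted p were 0.0077, 0.016 and 0.040. The median coefficient of variation over 4 libraries was 2.65% in the 31 genes, 3.22% in the 1000 most abundant protein-coding genes and 4.94% in those above 1 TPM. Hnrnpul1 had the lowest, 0.35%, at 144.8, 145, 145 and 144 TPM, and Hnrnpab the next at 0.55%. Those above 5% were Srsf12 at 7.46%, Hnrnpa0 at 7.17%, Hnrnpa3 at 6.75% and Hnrnpd at 5.57%, and the first of these rests on 16 to 34 counts per library. The lineage marker Il17f did vary, at 557, 391, 501 and 521 TPM, with an adjusted p of 2.1e-06 in the same edgeR trend test.

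The small differences between libraries were not spread evenly. Replicate 3 was the highest library in 12 of the 20 hnRNP genes and in 4 of the 11 SR genes, against 24.2% of the 1000 most abundant protein-coding genes. Replicate 4 was the lowest library in 12 of the 20 hnRNP and 4 of the 11 SR genes, against 24.9% of those 1000. The hnRNP sum was highest in replicate 3, at 11189 TPM, and lowest in replicate 4, at 10582 TPM. The genes of a family are not independent observations, so this is a description without a test.

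**Figure D5:**
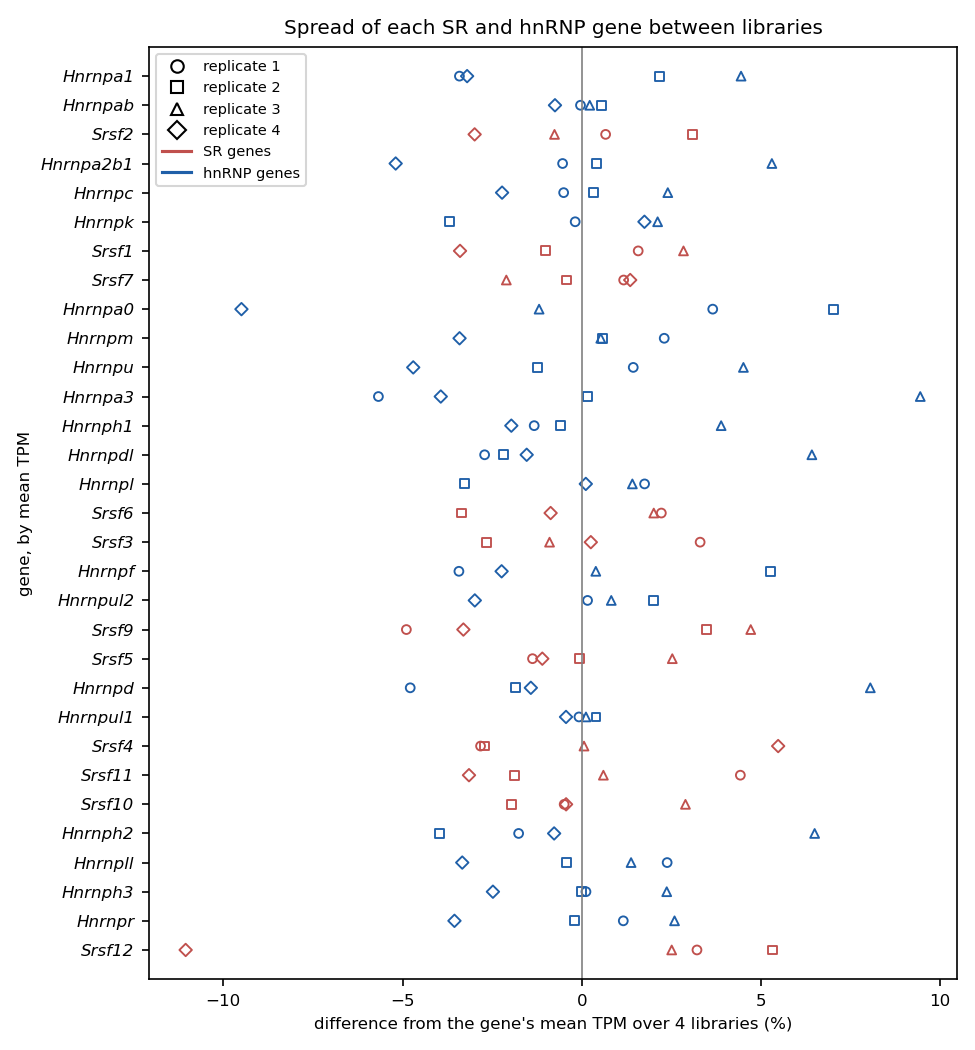
Difference of each library from the gene's mean TPM in percent (x axis) for the 31 genes (y axis, ordered by mean TPM), with 1 symbol per replicate, SR genes in red and hnRNP genes in blue. Triangles (replicate 3) lie on the right and diamonds (replicate 4) on the left in most hnRNP genes, and every point lies within 10% of the mean except Srsf12 in replicate 4.

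Poison exons were looked for in the annotation, in transcripts annotated for nonsense-mediated decay. They were exons that hold the annotated stop codon and overlap no exon of a protein-coding transcript of the gene. Other transcript types, such as retained-intron transcripts, were not compared. They were present in 7 of the 31 genes, or 22.6%, against 8.26% of protein-coding genes above 1 TPM and 6.2% of the 1000 most abundant. By family they were in 5 of 11 SR genes (45.5%) and 2 of 20 hnRNP genes (10%). The hnRNP share is thus near that of genes above 1 TPM. Members also have more annotated transcripts, a median of 7 against 5 in both sets. A decay transcript of any kind was annotated in 19 of the 31 genes, or 61.3%, against 30.9% of protein-coding genes above 1 TPM and 24.9% of the 1000 most abundant. The sequences run from the start of each exon to its stop codon, which is in capitals, and are shown because they carry the stops through which several of these genes are known to limit their own mRNA.
Srsf3, chr17:29039454-29039909, plus strand: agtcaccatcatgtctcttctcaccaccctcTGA
Srsf7, chr17:80204622-80205081, minus strand: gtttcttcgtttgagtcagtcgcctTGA
Srsf11, chr3:158023243-158023359, minus strand: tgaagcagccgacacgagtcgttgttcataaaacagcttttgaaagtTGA
Srsf4, chr4:131884276-131884482, plus strand: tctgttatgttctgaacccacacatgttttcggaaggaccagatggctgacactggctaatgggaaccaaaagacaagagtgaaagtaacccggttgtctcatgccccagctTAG
Srsf9, chr5:115328347-115328704, plus strand: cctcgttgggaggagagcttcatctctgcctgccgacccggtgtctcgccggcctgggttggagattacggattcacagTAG
Hnrnpl, chr7:28817335-28817404, plus strand: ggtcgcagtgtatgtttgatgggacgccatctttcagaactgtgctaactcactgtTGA
Hnrnpll, chr17:80044940-80045022, minus strand: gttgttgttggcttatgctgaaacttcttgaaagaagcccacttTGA
The exons, in mm10 coordinates of GENCODE M21, have 456 bases in Srsf3, 460 in Srsf7, 358 in Srsf9, 207 in Srsf4, 117 in Srsf11, 83 in Hnrnpll and 70 in Hnrnpl, while Srsf11 has another of 109 bases and Srsf4 a shorter version of 188 bases that ends at the same base. Counts were deposited per gene, so reads of these exons are part of the levels above and their inclusion was not measured.

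The machinery that acts on SR and hnRNP proteins was present as well. Of 11 SR kinases and importins, 10 lay above 1 TPM and the muscle kinase Srpk3 was at 0, with Tnpo1 and Tnpo2, which import hnRNP A1, at 189 ± 10.5 and 132 ± 7.58 TPM and the kinase Prpf4b at 114 ± 6.69 TPM (SD, n = 4). Tnpo3, the importin of SR proteins, was at 75.4 ± 1.93 TPM. This order is that of merged exons. With the longest protein-coding transcript as the length, the kinase Clk1 and Tnpo3 led at 170 and 168 TPM, ahead of Tnpo1 at 139 TPM. Tnpo2 was then at 123 and Prpf4b at 46.9 TPM. Of 9 arginine methyltransferases, 8 lay above 1 TPM, led by Prmt1, which makes asymmetric dimethylarginine, at 543 ± 19.4 TPM and Prmt5, which makes the symmetric form, at 330 ± 6.61 TPM, and the brain enzyme Prmt8 was at 0. All 10 genes of nonsense-mediated decay lay above 1 TPM, with the helicase Upf1 highest at 189 ± 4.03 TPM and Upf3a lowest at 20.8 ± 1.18 TPM. With the longest transcript Upf1 was still highest, at 136 TPM, but Smg6 was lowest at 27.4 TPM, with Upf3a at 42.8 TPM.

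The 14 hnRNPs with other symbols were all above 1 TPM, and Pcbp1 at 1049 ± 11.2, Pcbp2 at 875 ± 27.4 and Ptbp1 at 783 ± 8.36 TPM each exceeded Hnrnpc at 748 TPM, while Pcbp3 was at 11.1 ± 0.895 TPM. All 19 SR-related genes were above 1 TPM, from Rsrc1 at 11.4 ± 0.552 to Srrm2 at 293 ± 12.7 and Rnps1, a part of the exon junction complex, at 323 ± 9.56 TPM. All 17 core spliceosome genes were too, from Snrpc at 34.1 ± 0.919 to Prpf8, the core of the catalytic centre, at 544 ± 20.7 TPM. The 22 other splicing regulators were divided, with 14 above and 7 below 1 TPM and Rbfox2 on neither side, by edgeR. DESeq2 called all 14 above too, but of the 7 below it called 1, Nova2, gave no value for the 4 with no count, and did not call Celf4 or Esrp2, with adjusted p of 0.33 and 0.23. Celf1, Rbm39 and Khdrbs1 led them at 193 ± 7.44, 182 ± 4.77 and 161 ± 2.50 TPM, and Rbfox1, a regulator of neuronal and muscle exons, had no count. Their median was 15.1 TPM, against 161 TPM for the hnRNPs with other symbols, 103 TPM for the SR-related and 227 TPM for the core spliceosome genes. These orders and medians are those of merged exons. With the longest protein-coding transcript as the length, Prpf8 was at 394 TPM, below U2af2 at 534 TPM. Snrpc was then at 152 TPM, above Sf3a1 at 148 TPM. Tra2a then led the SR-related genes at 288 TPM, ahead of Srrm2 at 262 and Rnps1 at 234 TPM. Of the other regulators, Rbm39 and Mbnl1 then led at 326 and 269 TPM, with Khdrbs1 at 200 and Celf1 at 150 TPM.

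Promoters of 250 bases before to 50 after the start, from the RefSeq table of GRCm38.p6, matched 29 of the 31 genes. They were rich in CG dinucleotides, with a median of 31 per promoter against 21 in genes over 1 TPM and 7 in all promoters of the table. The E-box CACGTG, on either strand, was in the promoters of 5 of the 29 genes (17.2%), Hnrnpa3, Hnrnpd, Hnrnpf, Hnrnph2 and Hnrnpm, against 12.5% of genes over 1 TPM and 8.09% of all. The ETS motif CCGGAAG was in 20.7% of the 29 genes, against 23.2% of genes over 1 TPM. Binding was not measured.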

How the data were processed

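The unit deposited by the authors is the count: whole read pairs assigned to each gene. Per the file headers, featureCounts 1.4.6-p4 assigned pairs with both ends mapped to the reverse strand of GENCODE M13 exons (mm10) and left out multi-mapping reads. Beside the counts, the authors deposited each gene's merged exon length. For the aligner, the sources used here give no version. Symbols, transcript classes and coding sequences came from GENCODE M21, in which 50376 of 50600 identifiers were found.

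TPM was computed from the deposited counts and lengths. Levels were tested against 1 TPM by edgeR 4.0.16 (R 4.3.3), with a two-sided quasi-likelihood F test of the intercept over 21764 protein-coding genes. Variation was tested one-sided, by the deviance of a negative binomial fit with edgeR's dispersion trend after TMM normalization, where the mean count was 10 or more. Both used Benjamini-Hochberg adjustment at 0.05 and were tested on simulated data. Pairs were compared by exact sign-flip permutation tests of log2(TPM + 1). DESeq2 1.42.0, other lengths, thresholds, pseudocounts and denominators, and leaving out each library were alternatives. Shared sequence was measured in 50-base words of the transcripts, with a level called uncertain at 25% or more. No 2 libraries were duplicates, at a chi-square per degree of freedom of 4.36 to 11.4 between them.

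Members, lists and pairs were chosen with earlier results of these data known. The naming rule takes every member, the genes of the pairs, Ptprc, and the 3 highest and the lowest gene of each list, of which markers of absent cell types are given mainly as sums. Rbfox2, Celf4, Esrp2, Nova2 and Tnpo3 were named after their values were seen. So were Clk1, Smg6, U2af2, Sf3a1, Tra2a and Mbnl1. Protein sequences, which the rule also asked for, were not used here. Text notes that came with the tables contain no values and were left out. The counts carry no molecular identifiers, so they are not counts of independent molecules.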

Additional observations from a re-analysis of the deposited data

Results flagged for a closer look

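Of 99 items tested for a library far from the other 3, 3 were found, where chance gives about 1 in 20. Hnrnpdl was highest in replicate 3, at 395 TPM, against 361, 363 and 365 TPM in replicates 1, 2 and 4. The B cell marker Ms4a1 was at 0.0311 TPM in replicate 3 and at 0 in the others, and the haemoglobin gene Hbb-bs at 0.225 TPM in replicate 2 and at 0 in the others. These rest on 2 counts of Ms4a1 and 1 count of Hbb-bs, and any gene with counts in a single library of 4 stands out in this way, so neither bears on the comparison with chance. Outside the protein-coding genes, the processed pseudogene Hnrnpa1l2-ps2 held 36 counts over the 4 libraries, 11, 2, 9 and 14 in replicates 1 to 4.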

How the results depend on the processing

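The count of 30 genes above 1 TPM stayed at 30 or 31, and that of varying genes at 0, under each alternative run. The count below was 1, Srsf12, with a line of 2 TPM, a line of 10 TPM, the longest transcript length and the median transcript length, the last chosen after seeing the data. With the longest length the difference turned to 0.18 for Srsf3 against Srsf7, 0.10 for Srsf5 against Srsf6, -0.37 for Hnrnpa1 against Hnrnpa2b1 and 0.38 for Hnrnpul1 against Hnrnpul2. With the median length it turned to -0.30 for Hnrnpa1 against Hnrnpa2b1, 0.33 for Hnrnpd against Hnrnpdl and 0.56 for Hnrnpul1 against Hnrnpul2. The SR sum was 3916 TPM with the longest and 3292 TPM with the median length, and the hnRNP sum 11782 TPM with the longest. With protein-coding genes alone in the denominator the sums were 3776 and 11307 TPM. Leaving out 1 library gave SR sums of 3619 to 3646 TPM, hnRNP sums of 10761 to 10963 TPM and member levels 0.97 to 1.04 times those of 4 libraries. In the other 155 values of these results, differences kept their sign, sums stayed within 1 SD and counts stayed the same or nearly so. Of the levels of single genes, 134 stayed within 1 SD and 83 did not. No paired comparison of sample groups was possible because the 4 libraries form 1 group. Depth limits Srsf12 alone, at 16 to 34 counts per library, since the other genes had at least 773.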
